A study of Mus musculus with 9 samples.

Results

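The 8 genes described here are ubiquitin ligases and ligase regulators of muscle protein turnover, followed in mouse hearts: Fbxo32, Trim63, Trim54, Trim55, Fbxo40, Asb2, Stub1 and Mdm4. They were taken by symbol from the deposited tables, and all 8 were found there, out of 15779 genes listed in all. The samples were 9 libraries of polyA RNA from adult C57BL/6J hearts, 3 in each group. The first group was wild type for Mybpc3 and received saline. The second was homozygous for the Mybpc3 stop variant R946X and received saline. The third had the same homozygous genotype and received a treatment labelled high-dose exABE8e. The labels do not define that name further. The series describes adenine base editors that were carried by adeno-associated virus and expressed in cardiomyocytes to correct the stop codon. Wild-type hearts given the editor, and other doses, were not analysed here, so effects of the virus, of the editor and of the corrected gene cannot be told apart. Sex, age beyond adult, and the numerical dose are not given in the sources used here. Nothing in the labels says whether replicates were handled on separate days, and each p-value rests on the spread between hearts within the groups compared.

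Muscle fibres renew their contractile proteins continuously. A ubiquitin ligase picks out a protein and attaches a chain of ubiquitin, after which the proteasome degrades it. Fbxo32 (atrogin-1) and Trim63 (MuRF1) are the classic ligases of muscle wasting, and both are transcriptional targets of FoxO factors, which insulin and IGF1 signalling hold out of the nucleus. Trim55 (MuRF2) and Trim54 (MuRF3) are relatives of Trim63 that sit on the sarcomere and on microtubules. Fbxo40 and Asb2 are substrate receptors of cullin-based ligases, Stub1 (CHIP) ubiquitinates clients of heat shock proteins, and Mdm4 is a partner of Mdm2 that restrains p53.

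The sequences just before the transcription start bear on how these genes may be controlled, and 3 of them are shown because the results turn on these genes: Trim63 for its spread among treated hearts, and Fbxo40 and Trim54 for their levels in mutants. RefSeq (GRCm38.p6, the same assembly as the mm10 named in the submitters' processing notes) gave such a sequence for 6 of the 8 genes, and none was matched for Fbxo32 and Trim55. The Trim63 and Trim54 runs below hold the 250 bases before the start, 5′ to 3′ on the gene's strand. The Fbxo40 run belongs to the first of its 2 listed starts, at base 36990467 of chromosome 16. RefSeq's span of Fbxo40 reaches 63 bases beyond that start, so those bases are left out and the other 187 are shown. Capitals mark the forkhead core GTAAACA and the hexamer AGAACA of the glucocorticoid receptor, on either strand.
Trim63, plus strand: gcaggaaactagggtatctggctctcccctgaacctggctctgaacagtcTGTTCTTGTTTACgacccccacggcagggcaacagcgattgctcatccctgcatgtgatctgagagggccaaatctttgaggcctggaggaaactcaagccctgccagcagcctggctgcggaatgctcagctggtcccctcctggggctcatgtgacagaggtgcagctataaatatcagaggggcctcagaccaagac
Trim54, plus strand: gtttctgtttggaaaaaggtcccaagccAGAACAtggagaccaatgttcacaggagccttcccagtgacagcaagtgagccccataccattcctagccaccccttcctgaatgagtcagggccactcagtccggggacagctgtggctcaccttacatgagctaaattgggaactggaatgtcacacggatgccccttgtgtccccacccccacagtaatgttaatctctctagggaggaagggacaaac
Fbxo40, minus strand: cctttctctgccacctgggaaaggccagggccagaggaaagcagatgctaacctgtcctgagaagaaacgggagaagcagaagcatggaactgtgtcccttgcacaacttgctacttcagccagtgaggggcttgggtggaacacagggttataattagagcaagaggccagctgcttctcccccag
The Trim63 run lies at chr4:134314870-134315119, the Trim54 run at chr5:31116362-31116611 and the Fbxo40 run at chr16:36990531-36990717. In Trim63 that hexamer, read on the opposite strand at 200 to 195 bases before the start, is followed directly by a forkhead core at 194 to 188 bases. Trim63 was the only one of the 6 genes with a forkhead core in the 250 bases searched before each listed start, and 3.17% of all 32851 promoter windows of this length hold one. The hexamer was found before Trim63, Trim54 and the second listed start of Fbxo40, and 16.1% of all windows hold it. The E-box CANNTG is too common to set genes apart, since 66.2% of windows hold at least 1 on either strand. A match is a description of letters and shows no binding.

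The genes lie on GRCm38 at chr15:58175879-58214892 (Fbxo32, minus strand), chr4:134315120-134329629 (Trim63, plus), chr5:31116612-31137626 (Trim54, plus), chr3:19644344-19692584 (Trim55, plus), chr16:36963461-36990530 (Fbxo40, minus), chr12:103321142-103356001 (Asb2, minus), chr17:25830634-25832919 (Stub1, minus) and chr1:132986105-133030587 (Mdm4, minus). In GENCODE M21, Stub1 shares 1084 exonic bases with Jmjd8 on the opposite strand, and whether reads were counted by strand is not given in the sources used here. Jmjd8 itself was between 11 and 14 in the 9 libraries, and reads of the shared bases cannot be told apart. Fbxo32 and Trim54 share 186 and 382 exonic bases with Gm15943 and Gm15469 on the opposite strand, which were listed at 1 at most.

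Values below are as deposited: whole numbers scaled so that each library summed to between 999152 and 999382. Whether they are also scaled for transcript length is not stated, and the median value rose from 12 in genes with the shortest transcripts to 27.6 in those with the longest, in 4 equal classes, so a gene is compared only with itself. Mitochondrial transcripts made up 20.0 to 24.1% of the sum in wild type, 17.0 to 20.9% in saline mutants and 17.6 to 20.7% in treated mutants. On a scale with a fixed sum, such shares move the values of all other genes. Depth is unknown, and precision rests on 3 libraries per group. Mybpc3, the gene that carries the variant, was 1510 to 2039 in wild type, 133 to 186 in saline mutants and 1024 to 1374 in treated mutants. The summed value of the 8 cardiomyocyte markers was 39696 to 47506 in wild type, 37811 to 47347 in saline mutants and 39740 to 44286 in treated mutants, and all 8 were above 0 in each library. Of 11 skeletal muscle markers, 5 were listed at all, and their sum was 1 to 3 in the saline groups and 5 to 6 in treated hearts. Skeletal muscle, a rich source of these ligases, was thus near 0. In whole tissue, fewer cells of a type and less RNA per cell cannot be told apart. Xist was above 0 in 3 libraries, 1 per group: wild type replicate 1 (119), saline mutant replicate 3 (351) and treated replicate 1 (39). The first 2 of these had the Y-linked genes Ddx3y, Uty, Kdm5d and Eif2s3y at 0, while treated replicate 1 had both Xist and Y-linked RNA (Ddx3y 38, Eif2s3y 37). The other 6 libraries had Ddx3y at 70 to 97 and Xist at 0. The source of this mixture in treated replicate 1 was not tested. Without that library, 0 of the 8 ligases were called in either comparison with treated hearts, as with it. That count was 0 whichever 1 library was left out, so it cannot show an effect of this library. Over all genes, calls in treated mutants against wild type went from 134 to 24 without it. They ranged from 1 to 133 over all fits with 1 library left out.

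**Figure D1:**
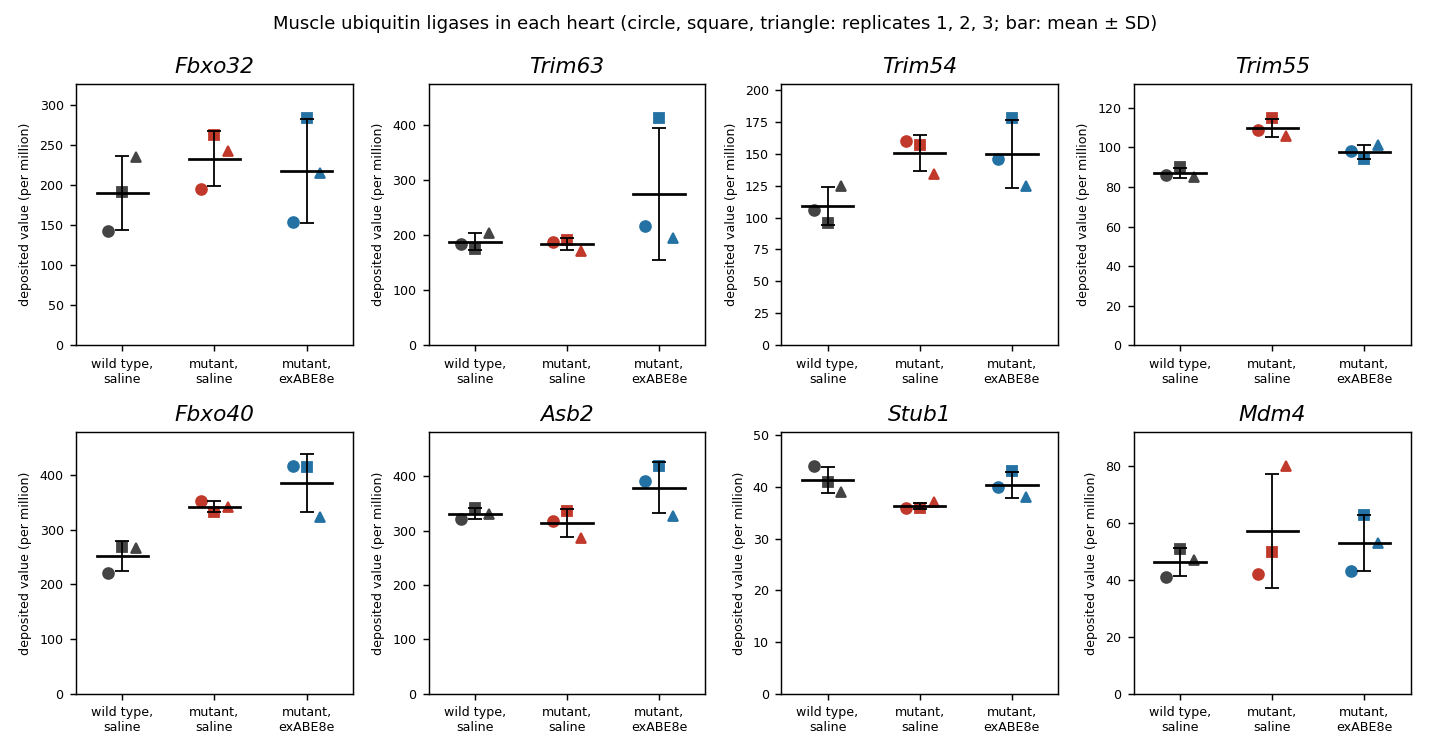
Deposited value (scaled units, vertical axis from 0) of each of the 8 genes in the 9 hearts, by group; symbols mark replicates 1, 2 and 3, and the bar is the mean ± SD (n = 3). Fbxo40, Trim54 and Trim55 are higher in all 3 saline mutants than in all 3 wild types, and Trim63 stands alone at 414 in treated replicate 2.

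Between saline mutant and wild-type hearts, Fbxo40 was the 1 ligase called as higher, and 0 were called as lower. Trim54 and Trim55 were also higher without overlap, by 0.46 and 0.33 in log2, but were not called (limma adjusted p 0.0645 and 0.0661). In the lists further below, counts of genes that rose or fell are counts of calls. Over all genes tested with limma, 7.7% were called at a Benjamini-Hochberg adjusted p under 0.05 (1050 of 13632), 4.56% as higher and 3.14% as lower. Of the 8 ligases 1 was called, higher, and 3 had an unadjusted p under 0.05, beside 19.7% of all genes. The groups did not overlap for 4 of 8: Fbxo40, Trim54 and Trim55 higher and Stub1 lower. Such separation was found for 21.6% of all genes tested, 12.8% higher and 8.78% lower. The median log2 fold change of the 8 was 0.28, beside 0.07 over all genes. With values rescaled without mitochondrial transcripts, the median over all genes was 0.02.

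Fbxo40, the substrate receptor of a cullin-1 ligase that is reported to target the insulin receptor substrate Irs1 in skeletal muscle, was 220, 269 and 266 in wild type (252 ± 27.5, SD, n = 3). The saline mutants were at 352, 332 and 342 (342 ± 10), and treatment gave 416, 415 and 324 (385 ± 52.8). All 6 mutant hearts, treated or not, lay above all 3 wild types, and the lowest mutant heart was a treated one. Fbxo40 rose 1.36-fold in saline mutants, or 0.45 as a difference of log2(value + 1) (SE 0.107; adjusted p 0.0388 by limma). This call was held in 7 of 19 alternative fits, with adjusted p from 0.0266 to 0.133. It was lost when any 1 of the 6 libraries was left out: wild type replicate 1 (0.0734), 2 (0.0597) or 3 (0.0847), or saline mutant replicate 1 (0.0972), 2 (0.133) or 3 (0.0964). It was also lost under median-of-ratios or upper-quartile scaling. The same held with limma's own variance step or all 9 libraries in 1 fit, where Trim55 was called in its place. The variance step of the main fit was chosen with earlier results of these data known. The Fbxo40 mean of treated hearts lay farther from wild type than that of saline mutants. The difference of treated from saline mutants was 0.16 (95% interval -0.12 to 0.44, limma adjusted p 0.76). Against wild type, treated hearts differed by 0.61 (SE 0.136, limma adjusted p 0.118), which passed the threshold only when all 9 libraries shared 1 fit (0.0375).

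Fbxo32, the other F-box protein, was 143, 192 and 235 in wild type, against 195, 262 and 242 in mutants on saline and 154, 284 and 215 after treatment. The 3 groups overlapped throughout, and replicate 1 was the lowest heart of each. The difference of saline mutants from wild type was 0.31 (95% interval -0.11 to 0.73, limma adjusted p 0.409), and it was 0.12 without wild type replicate 1 and 0.48 without wild type replicate 3. Treated hearts differed from saline mutants by -0.13 (interval -0.62 to 0.36) and from wild type by 0.18 (interval -0.41 to 0.77), with limma adjusted p-values of 0.894 and 0.836.

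The 3 MuRF genes gave 3 patterns. Trim55 was 86, 90 and 85 in wild type (87.0 ± 2.65), against 109, 115 and 106 in mutants on saline (110 ± 4.58) and 98, 94 and 101 after treatment (97.7 ± 3.51). No pair of groups overlapped, and treated hearts lay between the other groups. The steps were small: 0.33 in saline mutants against wild type (SE 0.0915, limma adjusted p 0.0661), -0.17 with treatment (SE 0.0958, adjusted p 0.684) and 0.16 in treated hearts against wild type (SE 0.0871, adjusted p 0.501). None of the 3 passed the threshold over all genes. The first did in 2 of 19 alternative fits, with a lowest adjusted p of 0.0235.

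Trim54 was 106, 96 and 125 in wild type (109 ± 14.7), against 160, 157 and 134 in mutants on saline (150.3 ± 14.2) and 146, 178 and 125 after treatment (149.7 ± 26.7). The saline groups did not overlap, while treated replicate 3, at 125, equalled the highest wild type. The difference of saline mutants from wild type was 0.46 (SE 0.126, limma adjusted p 0.0645), about as large as that of Fbxo40. It passed in 1 of 19 alternative fits (lowest adjusted p 0.0423). Treated hearts differed from saline mutants by -0.02 (interval -0.35 to 0.31) and from wild type by 0.45 (limma adjusted p 0.295).

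Trim63, the MuRF gene of the wasting programme, was 185, 175 and 205 in wild type (188 ± 15.3) and 188, 192 and 172 in saline mutants (184 ± 10.6). These groups overlapped, and their difference of -0.03 had a 95% interval of -0.26 to 0.20. Treated mutants were at 217, 414 and 195 (275 ± 121). The second treated heart was thus far above the other 8 hearts, which lay between 172 and 217. Treated hearts were above saline mutants without overlap, but the difference of 0.50 (interval -0.07 to 1.07) was not called (limma adjusted p 0.652), and it was 0.16 without treated replicate 2 (adjusted p 0.992). Against wild type it was 0.46 (adjusted p 0.517), and 0.13 without that heart (adjusted p 0.853).

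Asb2, the receptor of a cullin-5 ligase that targets filamins, was 322, 342 and 331 in wild type, against 318, 337 and 286 in mutants on saline and 391, 419 and 328 after treatment. In 2 of the 3 treated hearts Asb2 was above all 6 saline hearts, and the other was among them. The difference with treatment was 0.27 (interval -0.01 to 0.55, limma adjusted p 0.61). The difference of saline mutants from wild type was -0.08 (interval -0.31 to 0.14).

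Stub1, the chaperone-linked ligase, was 44, 41 and 39 in wild type, against 36, 36 and 37 in mutants on saline and 40, 43 and 38 after treatment. Saline mutants were the lowest 3 hearts, below both other groups without overlap. The log2 differences were -0.18 in saline mutants against wild type (SE 0.102, limma adjusted p 0.395) and 0.15 with treatment (SE 0.107, adjusted p 0.752). Mdm4 was 41, 51 and 47 in wild type, against 42, 50 and 80 in mutants on saline and 43, 63 and 53 after treatment. The groups overlapped, and the highest value came from saline mutant replicate 3, the library with the highest Xist. This library was also the highest for 41.9% of all genes with 1 highest heart. The difference of saline mutants from wild type was 0.25 (interval -0.24 to 0.75, adjusted p 0.588) and turned to -0.01 without that library.

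In treated against saline mutants, 0.0147% of all genes tested were called (2 of 13636; 0.00733% higher and 0.00733% lower) and 0 of the 8 ligases by limma. At an unadjusted p under 0.05 there were 0 of the 8, beside 8.29% of all genes. The groups did not overlap for 3 of 8, Trim63 and Stub1 higher and Trim55 lower, beside 9.82% of all genes (5.48% higher and 4.34% lower). In treated mutants against wild type, 0.989% of genes were called (134 of 13554; 0.863% higher and 0.125% lower) and again 0 of the 8 by limma. Fbxo40 and Trim54 had an unadjusted p under 0.05, 2 of 8, beside 12.5% of all genes. There Fbxo40 and Trim55 were higher without overlap, 2 of 8, beside 14.6% of all genes (9.13% higher and 5.43% lower). The 3 comparisons share groups, so a gene's values in them are not independent.

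**Figure D2:**
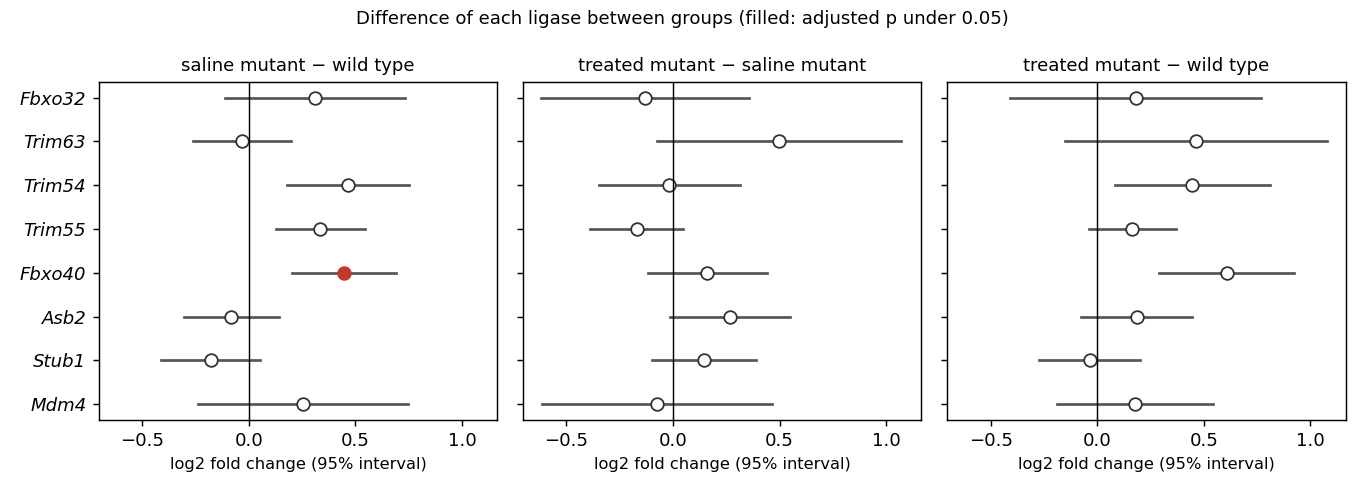
Log2 fold change of each of the 8 genes (points, limma on log2(value + 1)) with its 95% interval (lines) in the 3 comparisons; a filled point is called at an adjusted p under 0.05. The 1 filled point is Fbxo40 in saline mutants against wild type, at 0.45, and the widest interval is that of Trim63 in treated mutants against wild type, -0.15 to 1.08.

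The authors' deposited table lists Fbxo40 at a log2 fold change of 0.375 (unadjusted p 0.0239) for saline mutants over wild type and 0.598 (unadjusted p 0.000839) in treated mutants against wild type. In the authors' deposited table Trim63 is at 0.613 (unadjusted p 0.0145) in treated against saline mutants. After Benjamini-Hochberg adjustment of the deposited statistics these p-values become 0.515 for Fbxo40 in saline mutants, 0.12 for Fbxo40 in treated mutants and 0.99996 for Trim63.

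Treated replicate 2, the heart with the high Trim63, was also the highest of the 9 for Fbxo32 (284), Trim54 (178) and Asb2 (419). It was the highest single heart for 4 of 8 ligases, where 16.1% of all genes with 1 highest heart had it there. The genes that govern Trim63 and Fbxo32 were examined in the same heart, from a list of 40 regulators of which 36 had a mean value of at least 1. For 15 of the 34 with 1 highest heart (44.1%) it was this one. Foxo1, the forkhead factor, was 60 there and 31 to 43 in the other 8 hearts. Irs2, an insulin receptor substrate and FoxO target, was 50 there and 11 to 28 elsewhere. Klf15, a glucocorticoid-induced factor, was 94 there and 39 to 70 elsewhere. Ppargc1a, the coactivator of mitochondrial biogenesis, was 286 there and 66 to 107 elsewhere. The glucocorticoid target Fkbp5 did not single this heart out: it was 134 there and 133 in saline mutant replicate 2, but 31, 27 and 94 in wild type. Foxo3, Foxo4, Nr3c1 and Tsc22d3, of the same list, were highest in other hearts. They were 170, 71, 103 and 211 in treated replicate 2, and 177, 74, 130 and 299 in their highest hearts. These genes were named after their values were seen, and 1 heart allows no test.

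**Figure D3:**
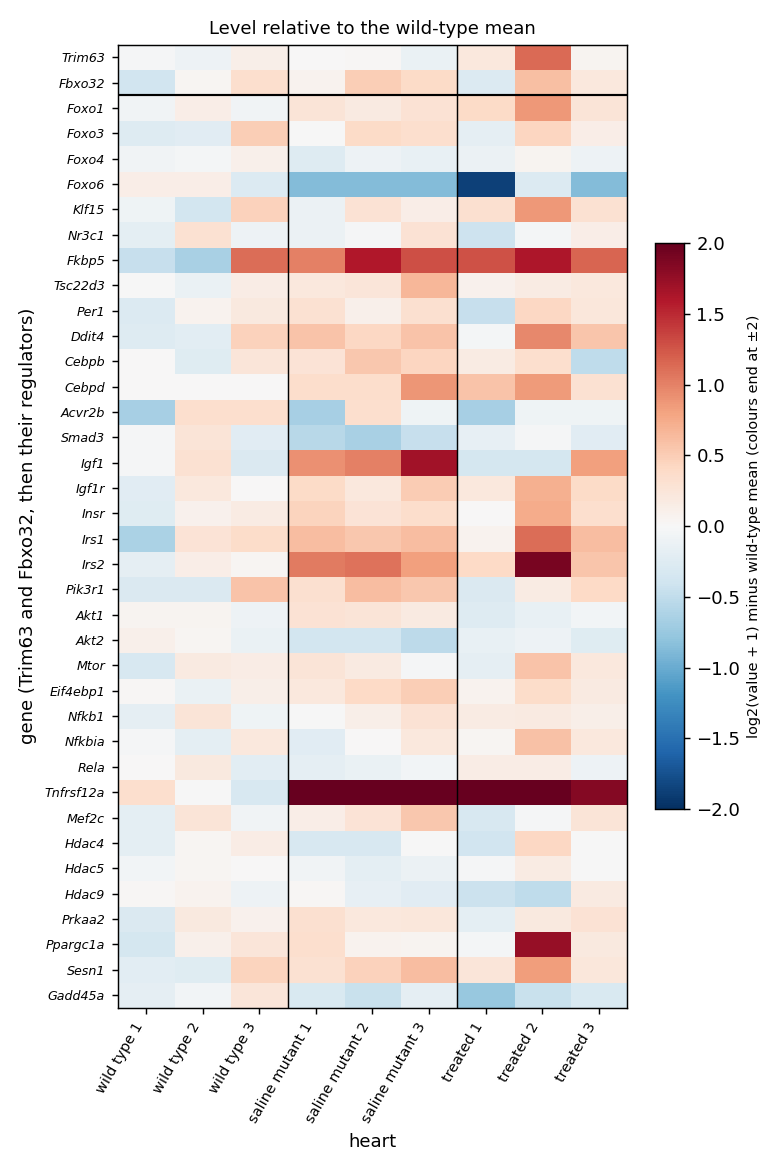
Trim63 and Fbxo32 (top) and 36 regulators in each heart (columns) as log2(value + 1) minus the wild-type mean; red is higher, blue lower, and colours end at ±2. Treated replicate 2 is red for Trim63, Foxo1, Klf15, Irs2 and Ppargc1a, while Tnfrsf12a is red in all 6 mutant hearts.

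Of the 36 regulators tested between saline mutant and wild type, 3 rose and 2 fell, beside 4.56% higher and 3.14% lower over all genes. An unadjusted p under 0.05 was found for 17 of 36, beside 19.7% of all genes, and their median was 0.24, beside 0.07. Tnfrsf12a, the receptor of the cytokine TWEAK, which drives muscle wasting, rose from 25.7 to 146 in group means, a log2 difference of 2.49 (SE 0.163; adjusted p 0.000128 by limma). Igf1, the growth factor that restrains FoxO, rose from 23.7 to 56.7 (by 1.2, SE 0.222, adjusted p 0.0127), and lost its call without wild type replicate 1 (0.0663). Irs2 rose from 12.7 to 26.0 (0.98, adjusted p 0.00376). Akt2, a kinase of the insulin pathway, fell from 224 to 167 (-0.42, adjusted p 0.0438), and Foxo6 fell from 2.67 to 1 (-0.86, adjusted p 0.0374). Both falls were lost when any 1 of the 6 libraries was left out, with adjusted p up to 0.138 and 0.151. Foxo1 (0.24, adjusted p 0.277), Foxo3 (0.23, adjusted p 0.602) and Klf15 (0.10, adjusted p 0.841) were not called. Treated against saline mutants, 0 of 36 were called by limma and 5 had an unadjusted p under 0.05, beside 8.29% of all genes. Against wild type, treated hearts had 1 call, beside 0.989% of all genes: Tnfrsf12a was 199, 104 and 93, a difference of 2.26 (adjusted p 0.0277). It was lost without any 1 of the wild-type libraries or without treated replicate 2 (adjusted p up to 0.094). The summed value of 6 fibroblast markers was 1381 to 1999 in wild type, 2176 to 3691 in saline mutants and 1615 to 2314 in treated hearts, and their part in these values was not tested.

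The machinery upstream and downstream of the ligases showed no calls. Of 30 ubiquitin-activating and conjugating enzymes, of 10 cullin partners and of 41 proteasome subunits, 0 were called in any of the 3 comparisons by limma. At an unadjusted p under 0.05 there were 6, 0 and 13 in saline mutants against wild type, beside 19.7% of all genes. With treatment there were 2, 0 and 1, beside 8.29% of all genes. In treated mutants against wild type there were 3, 0 and 6, beside 12.5% of all genes. Of the proteasome subunits, 35 of 41 had a positive difference in saline mutants, with a median of 0.15 beside 0.07 over all genes, and 14 of 41 were higher without overlap, beside 12.8% of all genes. Of 20 deubiquitinases and ubiquitin genes, 2 rose in saline mutants and 0 fell, beside 4.56% higher and 3.14% lower over all genes. Otud1 went from 16.7 to 59.0 (1.62, adjusted p 0.0182), lost without wild type replicate 1 or 3 (up to 0.0695), and Uchl1, a neuronal deubiquitinase, from 6.33 to 18.3 (1.39, adjusted p 0.00631). With treatment 0 of 20 were called and 1 had an unadjusted p under 0.05, beside 8.29% of all genes. In treated hearts against wild type 1 of 20 was called, beside 0.989% of all genes. This was Otud1 (1.56, adjusted p 0.0454), a call lost in 5 of 6 fits with 1 library left out, all but the one without treated replicate 3 (adjusted p up to 0.156).

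Of 40 other muscle ubiquitin ligases tested in saline mutants, 2 rose and 3 fell. The share that rose was near the 4.56% higher over all genes, while the share that fell was above the 3.14% lower. The list's median was 0.06, beside 0.07. Asb14 and Asb15, muscle relatives of Asb2, both fell. The list's other Asb genes, Asb8, Asb10, Asb11, Asb12 and Asb18, were not called, at -0.09, -0.47, 0.17, 0.05 and 0.34. Asb14 was 78, 83 and 89 in wild type, against 42, 43 and 41 in mutants on saline and 61, 67 and 60 after treatment, and it fell by 0.97 in saline mutants (SE 0.0992, limma adjusted p 0.000872). Asb15 was 57, 63 and 68 in wild type, against 42, 34 and 38 in mutants on saline and 45, 55 and 51 after treatment. Asb15 fell by 0.71 (adjusted p 0.00874), lost without saline mutant replicate 2 (0.0527). For both genes all 3 treated hearts lay between the saline groups without overlap. With treatment 0 of 40 were called by limma and 4 had an unadjusted p under 0.05, beside 8.29% of all genes. Fbxo31, an F-box protein, fell from 127 to 78.7 (-0.67, adjusted p 0.0114) in saline mutants. Rnf115, a RING ligase, rose from 29.0 to 78.3 (1.39, adjusted p 0.000872) and was at 68, 50 and 60 in treated hearts, above all 3 wild types (adjusted p 0.0277). In treated hearts against wild type this was 1 call of 40, beside 0.989% of all genes. That call was lost in 5 of 6 fits with 1 library left out, all but the one without treated replicate 2 (adjusted p up to 0.0989). Fbxo30, an F-box ligase of denervated muscle, rose from 28 to 41 (0.53, adjusted p 0.0478), and its call was lost when any 1 library was left out (up to 0.185).

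Of 45 substrates and partners of the ligases tested in saline mutants against wild type, 10 rose and 1 fell, beside 4.56% and 3.14% of all genes. By the rule for named genes these were led by Myh7, the slow myosin heavy chain (83.3 to 1049, by 3.62, adjusted p 0.000113), Acta1, skeletal actin (433 to 4874, by 3.56, adjusted p 0.000178), and Cdkn1a, the cell cycle inhibitor p21 (35.3 to 94.0, by 1.42, adjusted p 0.00874). The single fall was Mybpc3 itself (-3.53, adjusted p 2.66e-05). The genes that follow were chosen after their values were seen. Flnc, the muscle filamin related to the filamins that Asb2 targets, was 194, 274 and 267 in wild type, against 931, 596 and 471 in mutants on saline and 617, 684 and 505 after treatment. Flnc rose by 1.40 (adjusted p 0.00883; 0.0528 without wild type replicate 1). Of 13 heat shock proteins and co-chaperones in this list (symbols starting Hsp, Bag or Dnaj), 4 rose, among them the Stub1 partners Hsp90aa1 (99.0 to 248, by 1.32, adjusted p 0.000335) and Hspa8 (1264 to 1897, by 0.59, adjusted p 0.0102; 0.0512 without saline mutant replicate 2). The other 9 were not called, including Hsp90ab1 (0.21, adjusted p 0.309) and Bag3 (0.18, adjusted p 0.34). With treatment 1 of 45 was called higher, Mybpc3 (3.01), and 1 lower, Acta1 (-2.34), both at an adjusted p of 0.000254. These were the only 2 calls among the 13636 genes tested. An unadjusted p under 0.05 was found for 6 of 45, beside 8.29% of all genes. In treated hearts against wild type 1 of 45 was called, Flnc (1.30, adjusted p 0.0277), beside 0.989% of all genes. This call was lost in 5 of 6 fits with 1 library left out, all but the one without treated replicate 3 (up to 0.087). An unadjusted p under 0.05 was found for 15 of 45, beside 12.5% of all genes. Without overlap, 14 were higher and 4 lower, beside 9.13% and 5.43% of all genes.

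Around Mdm4, 6 of 15 tested p53 targets rose in saline mutants and 0 fell, beside 4.56% higher and 3.14% lower over all genes, with a median of 0.44 beside 0.07. Saline mutant replicate 3 was the highest heart for 8 of the 14 with 1 highest heart (57.1%), beside 41.9% of all genes. In the same comparison all 6 fibroblast markers (median 0.57; 1 called) and all 6 macrophage markers (median 0.37; 0 called) had positive differences, and the part of that library and of these cells was not tested. The p53 targets that rose were Cdkn1a, Gdf15, Eda2r, Trp53inp1, Aen and Perp. Gdf15, a stress cytokine, was listed at 0 in all wild types and at 3, 4 and 6 in saline mutants. Eda2r went from 6.00 to 11.7 (0.88, adjusted p 0.0277), Trp53inp1 from 23.3 to 40.0 (0.76, adjusted p 0.0151), Aen from 39.0 to 55.3 (0.49, adjusted p 0.0261) and Perp from 195 to 265 (0.44, adjusted p 0.0403). With single libraries left out, the calls of Eda2r, Trp53inp1, Aen and Perp were lost in 4, 2, 5 and 6 of 6 fits (adjusted p up to 0.123, 0.0693, 0.145 and 0.125). Mdm2, the ligase partner of Mdm4, was 57, 70 and 62 in wild type, against 61, 69 and 80 in mutants on saline and 77, 74 and 72 after treatment, and Trp53 was between 15 and 25 in all 9; neither was called. With treatment 0 of 15 were called by limma, 2 had an unadjusted p under 0.05, beside 8.29% of all genes, and 3 of 15 were positive. In treated hearts against wild type 1 of 15 was called, beside 0.989% of all genes. This was Gdf15, at 11, 3 and 3 (adjusted p 0.0479), a call lost when any 1 library was left out (up to 0.153).

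**Figure D4:**
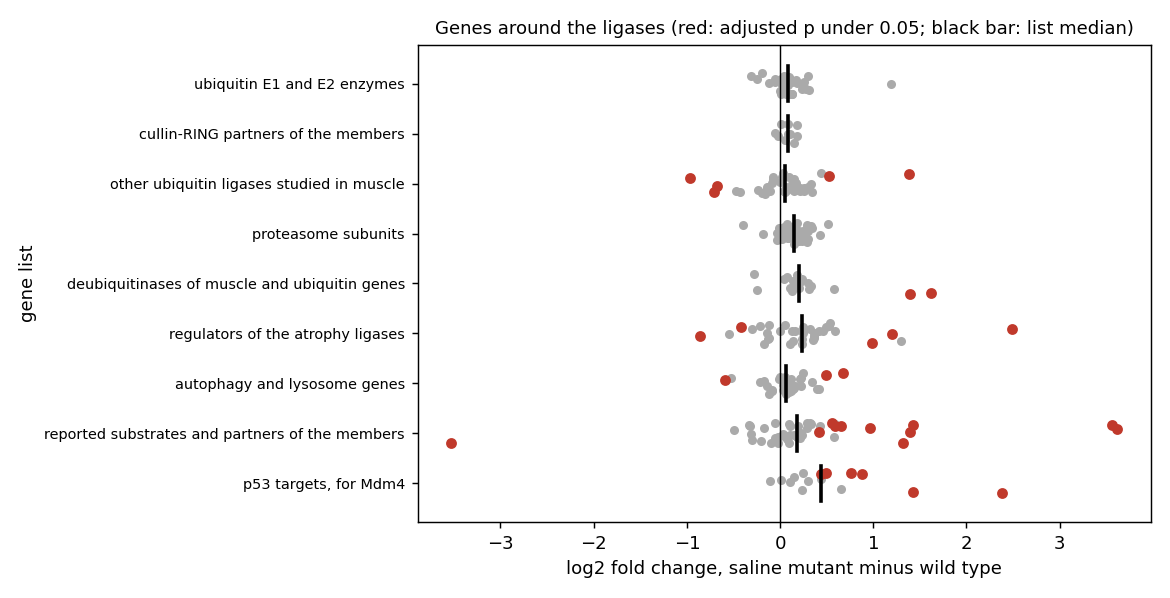
Log2 fold change of each gene in 9 lists around the ligases, saline mutant minus wild type (horizontal axis, log2(value + 1) scale); red points are called at an adjusted p under 0.05, and black bars are list medians. The E1 and E2 enzymes, cullin partners and proteasome subunits hold no red point, and the p53 targets have the median farthest from 0, at 0.44.

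Of 33 genes of autophagy, the other main route of protein breakdown, 2 rose and 1 fell in saline mutants. This is near the 7.7% called over all genes, and the list's median equalled that of all genes, at 0.07. Atg13, part of the kinase complex that starts autophagy, was 52, 56 and 57 in wild type and 93, 83 and 89 in saline mutants, and rose by 0.67 (adjusted p 0.00434). Gabarapl1, an autophagosome protein and FoxO target, was 71, 69 and 70 against 104, 92 and 101, a rise of 0.49 (adjusted p 0.0155). Its call was lost without wild type replicate 2 or 3 or saline mutant replicate 1 or 2 (up to 0.0674). Pink1, a kinase of mitochondrial quality control, fell from 600.3 to 398 (-0.59, adjusted p 0.00816; 0.0573 without saline mutant replicate 2). In treated hearts 0 of 33 were called against either saline group by limma. An unadjusted p under 0.05 was found for 2 against saline mutants and 7 against wild type, beside 8.29% and 12.5% of all genes.

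The genes most like Fbxo40 across the 9 hearts, among 8785 others with a mean value of at least 10, were Slc39a14, Mafg and Ptpn21. Likeness was the root mean square difference of log2(value + 1) after centring each gene, and it was 0.0654, 0.0733 and 0.0735 for these 3, while Fbxo40 itself spread by 0.286. Slc39a14, a metal transporter, was 66, 79 and 82 in wild type, against 96, 98 and 93 in mutants on saline and 120, 128 and 99 after treatment. Like Fbxo40, it was lowest in wild type replicate 1 and had treated replicates 1 and 2 as its highest hearts. Such a shared order follows from the choice by likeness over these same 9 hearts and is no separate finding.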

How the data were processed

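The 9 heart libraries of polyA RNA were grouped by title into 3 groups of 3. Per the submitters' processing notes, HISAT2, HTSeq, DESeq2 and mm10 were used; versions, annotation and settings are not given in the sources used here. The deposited values per library are whole numbers with nearly the same sum in each library and were treated as a score, not as read counts. The authors' mean signal per gene, log2 fold change, its standard error and test statistic (a score) come from the deposited tables, whose headers use DESeq2's column names. The authors' column of adjusted p-values equalled the unadjusted normal p-value of the statistic, and their p-value column was not used.

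Each pair of groups was fitted with limma 3.58.1 (R 4.3.3) on log2(value + 1), keeping genes whose mean was 1 or more. Residual variances were floored at the rounding variance (1/12 of a squared unit), with a trended prior whose degrees of freedom came from genes with a mean of at least 30. Scripts were tested on simulated data. P-values were Benjamini-Hochberg adjusted over all genes tested. Named were the 8 ligases, Mybpc3, genes called in each list (with over 6 called, the 3 largest rises and 3 largest falls), and the 3 genes most like each called ligase. The ligases, lists and variance step were chosen with earlier results of these data known. Fits with other pseudocounts, filters, scalings, variance steps and libraries were run as alternatives. The tables held the same value for a gene and library wherever it occurred more than once. The shorter tables of selected genes were not used.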

Additional observations from a re-analysis of the deposited data

How the results depend on the processing

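Each comparison was refitted under 19 alternatives. Of the results for the 8 ligases, 417 kept their sign and stayed called or not called, 12 became weaker, 4 stronger and 23 reversed. Of the 417, all but 7 were uncalled before and after. Those 7 and the 12 that became weaker were Fbxo40 in saline mutants against wild type, the only ligase result called at first. Of the results for called list genes 559 kept both and 159 became weaker, with 0 reversed.

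The count of ligases called in saline mutants against wild type, 1, became 0 under median-of-ratios factors, under upper-quartile factors and without the 3 libraries with Xist, and 2 with prior degrees of freedom from all genes (Fbxo40 and Trim54). It stayed 1 with limma's own variance step and in one fit over all 9 libraries, but the gene called was Trim55 and not Fbxo40. It ranged from 0 to 0 with 1 library left out. In treated mutants against wild type it became 1 in one fit over all 9 libraries. Over all genes, the 1050 calls became 556 without the 3 libraries with Xist and ranged from 506 to 1029 with 1 library left out. The share of calls that were higher went from 59.2% to 47.6% under upper-quartile factors. For treated mutants against wild type it went from 87.3% to 71.6% under those factors, and to 50.6% with limma's own variance step. With treatment it went from 50.0% to 80.0% under either set of factors and 66.7% without mitochondrial transcripts. The 2 calls with treatment became 6 with a mean of at least 10, 10 under median-of-ratios and 10 under upper-quartile factors, 32 with limma's own variance step, 14 with the prior from all genes and 13 in one fit, and ranged from 2 to 8 with 1 library left out. The 134 calls of treated mutants against wild type became 87 with a pseudocount of 10, 86 with no filter, 77 with limma's own variance step, 243 with the prior from all genes, 236 in one fit, 9 without the 3 libraries with Xist and 29 with a Y-linked covariate, and ranged from 1 to 133 with 1 library left out.

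Whether replicate numbers pair the hearts is not given in the labels, and 3 libraries per group cannot decide it. Same-numbered deviations correlated between -0.37 and -0.104 for saline mutants and wild types, and between -0.0696 and 0.197 for treated and saline mutants. For treated mutants and wild types they correlated between 0.0274 and 0.566. The 0.566 was that of replicate 1, and treated replicate 1 correlated at -0.387 and -0.358 with wild type replicates 2 and 3. With a replicate block, the count of ligases for saline mutants over wild type was 0, and the calls over all genes were 30 with treatment and 35 for treated mutants against wild type.

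The reversals were as follows. For saline mutants over wild type, Trim63 was 0.00438 and Mdm4 -0.0934 without the 3 libraries with Xist. With 1 library left out Trim63 ranged from -0.0831 (wild type replicate 2) to 0.0305 (wild type replicate 3), and Mdm4 from -0.0099 (saline mutant replicate 3) to 0.447 (saline mutant replicate 1). With treatment, Trim54 was 0.0239 under median-of-ratios and 0.00525 under upper-quartile factors, and ranged from -0.149 (treated replicate 2 left out) to 0.105 (treated replicate 3). Fbxo32 was 0.128 without the libraries with Xist and ranged from -0.344 (treated replicate 2) to 0.0954 (treated replicate 1). Mdm4 was 0.328 without the libraries with Xist and 0.115 with the Y-linked covariate, and ranged from -0.268 (saline mutant replicate 1) to 0.189 (saline mutant replicate 3). For treated mutants over wild type, Stub1 was 0.0153 without the libraries with Xist and 0.000458 with the covariate, and ranged from -0.0806 (treated replicate 2) to 0.0103 (wild type replicate 1). Fbxo32 was -0.00236 with the covariate and ranged from -0.0328 (treated replicate 2) to 0.407 (treated replicate 1). The cause was not tested. Rounding to whole numbers limits low genes, and depth is unknown.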

Other observations

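Libraries differed in which gene groups they led. Treated replicate 2 held the highest value for 11 of the 28 autophagy genes with 1 highest heart (39.3%), beside 16.1% of all genes. Sqstm1, the ubiquitin-binding autophagy receptor, was 781 there and 382 to 555 in the other hearts. Atg13 was 156 there and 52 to 99 elsewhere, and Bnip3, a mitophagy receptor, was 194 there and 72 to 135 elsewhere. Treated replicate 1 led 14 of the 42 substrates and partners (33.3%), beside 8.54% of all genes. Among them were heat shock genes: Hspa8 was 2628 there and 1202 to 2003 elsewhere, Hsp90aa1 390 there and 90 to 272 elsewhere, and Hspa1b 42 there, 22 in treated replicate 2 and 1 to 4 in the other 7 hearts. Saline mutant replicate 3 led 41.9% of all genes with 1 highest heart, 17 of 38 proteasome subunits (44.7%) and 8 of 14 p53 targets (57.1%). These genes were chosen after their values were seen.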
